A study of Mus musculus with 6 samples.

Results

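The Nr4a family is made up of 3 genes, Nr4a1, Nr4a2 and Nr4a3, and they were taken by symbol from 19943 genes listed in the tables. Their levels were compared between the medial prefrontal cortex of C57BL/6 mice that had been kept singly for 3 weeks after weaning (isolated 1 to 3) and that of control C57BL/6 mice (control 1 to 3). Messenger RNA levels were read by sequencing total RNA on a BGISEQ-500 instrument, with 1 library per sample and 18226448 to 18606573 expected counts in each library. The sample labels give an age of 6 weeks for both groups and the design text gives 7 weeks. The labels state neither the sex of the mice nor whether each library came from 1 animal, so p-values measure only the spread between these libraries, which may be technical.

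Nr4a proteins are orphan nuclear receptors: in known structures the ligand pocket is filled by bulky side chains, and activity is set largely by how much protein a cell makes. In neurons the genes are immediate early genes, switched on within minutes of synaptic activity through calcium and cyclic AMP signals that reach the factors CREB, MEF2 and SRF, and they take part in memory formation and spine density. Nr4a2 has a second pattern of expression that does not depend on recent activity, as it is required for midbrain dopamine neurons and marks neurons of the claustrum and of the deepest cortical layers.

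The 3 genes lie on different chromosomes of GRCm38. Nr4a1 (Entrez gene 15370) runs from 101253902 to 101274795 on the plus strand of chromosome 15, Nr4a2 (18227) from 57106830 to 57124003 on the minus strand of chromosome 2, and Nr4a3 (18124) from 48045078 to 48086447 on the plus strand of chromosome 4. Exons of 0 other genes of the GENCODE annotation overlapped their exons. The 250 bases before 1 RefSeq start of each gene are shown because each window holds 4 copies of the half-site of the cyclic AMP response element, the 5-letter core CGTCA or its reverse TGACG, to which CREB can bind. The capitals mark these copies, and the sequences are from RefSeq on GRCm38.p6.
Nr4a1, chr15:101266596-101266845, plus strand: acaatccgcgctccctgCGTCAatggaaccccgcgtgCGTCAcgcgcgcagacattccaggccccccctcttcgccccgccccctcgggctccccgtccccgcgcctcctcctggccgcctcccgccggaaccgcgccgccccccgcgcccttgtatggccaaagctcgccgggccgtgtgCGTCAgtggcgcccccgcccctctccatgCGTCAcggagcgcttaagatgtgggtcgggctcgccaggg
Nr4a2, chr2:57124004-57124253, minus strand: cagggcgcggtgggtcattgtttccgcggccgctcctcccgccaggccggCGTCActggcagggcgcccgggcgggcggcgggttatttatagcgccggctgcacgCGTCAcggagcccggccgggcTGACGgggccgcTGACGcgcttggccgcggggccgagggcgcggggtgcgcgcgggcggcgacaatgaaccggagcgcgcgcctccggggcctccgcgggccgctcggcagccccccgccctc
Nr4a3, chr4:48045055-48045304, plus strand: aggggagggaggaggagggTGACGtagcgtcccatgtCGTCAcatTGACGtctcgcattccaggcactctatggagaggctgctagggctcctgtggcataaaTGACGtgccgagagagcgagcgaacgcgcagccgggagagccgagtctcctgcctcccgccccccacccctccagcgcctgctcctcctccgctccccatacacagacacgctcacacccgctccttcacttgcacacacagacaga

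At least 4 half-sites, counted on both strands, stood in 0.137% of the 32841 RefSeq promoter windows of the same length, and at least 1 stood in 17.8%. The windows of the family were rich in G and C, at 74.4% for Nr4a1, 80% for Nr4a2 and 63.6% for Nr4a3, and among the 5587 windows with at least 65% G and C the share with at least 4 half-sites was 0.358%. The full palindrome TGACGTCA, which would count as 2 half-sites, was found in 0 of the 3 windows and in 1.55% of all windows. The same was true of the CArG box, bound by SRF (0 of 3, against 1.47% of all windows), and of AAAGGTCA, the element that Nr4a proteins themselves bind (0 of 3, against 1.34%). The TATA box TATAAA was present once, in the reverse direction, in the Nr4a2 window and in 12.4% of all windows. GENCODE lists further starts of Nr4a1 at 101254269 and of Nr4a2 at 57115038 and 57113072, whose promoters were not examined, and its start of Nr4a3, at 48045153, lies inside the window shown. The Nr4a3 half-site nearest to the RefSeq start used, 142 bases before it, lies past that GENCODE start. The gene interval given above for Nr4a3 begins at 48045078, also inside the window. The number of half-sites upstream of Nr4a3 thus depends on the start taken.

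Nr4a1 was the most abundant member per transcript length in each of the 6 libraries. The deposited FPKM of Nr4a1 was 24.30, 22.69 and 32.45 in isolated 1, 2 and 3, against 64.34, 37.48 and 22.64 in control 1, 2 and 3. Control 1 was the highest library by a wide margin, whereas control 3 was as low as isolated 2, so the groups overlapped. The gene averaged 26.5 ± 5.23 FPKM in isolated and 41.5 ± 21.1 FPKM in control libraries (SD, n = 3 each), and in CPM (a gene's counts relative to the TMM-adjusted library total) 66.9 ± 12.6 and 105 ± 53.5. The log2 fold change of isolated over control was -0.65 (SE 0.34, 95% interval -1.44 to 0.13). It did not pass edgeR's quasi-likelihood test (unadjusted p = 0.0918, Benjamini-Hochberg adjusted p = 0.999 over 15169 genes). An exact two-sided permutation test of the mean FPKM gave p = 0.4.

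Nr4a2 was the member in which the groups stood apart. Its FPKM was 7.29, 6.27 and 9.69 in isolated 1, 2 and 3, against 10.99, 25.29 and 10.88 in control 1, 2 and 3. Each isolated library was thus below each control library, but the gap between isolated 3 and control 3 was small, and control 2 stood well above the other controls. The gene averaged 7.75 ± 1.76 FPKM in isolated and 15.7 ± 8.29 FPKM in control libraries (SD, n = 3 each). Its log2 fold change of -1.02 (SE 0.34, 95% interval -1.81 to -0.23) corresponded to 0.492 times the control level. This had an unadjusted p of 0.0177 and an adjusted p of 0.999 by edgeR, so it was not called. The exact two-sided permutation test on FPKM gave p = 0.1, the smallest that 3 against 3 libraries allow. Of all tested genes, 4.73% had isolated libraries all below the controls, and 2% had an unadjusted p under 0.05 with a lower level in isolated libraries. By p Nr4a2 ranked 157 of 15169 genes.

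Nr4a3, which overlaps in function with Nr4a1, differed least between the groups. The FPKM values were 7.47, 6.55 and 6.01 in isolated 1, 2 and 3, against 10.14, 8.90 and 4.90 in control 1, 2 and 3. Control 1 and control 2 were the highest and control 3 the lowest of the 6 libraries, so the isolated libraries lay inside the control range. The means were 6.68 ± 0.738 FPKM in isolated and 7.98 ± 2.74 FPKM in control libraries (SD, n = 3 each), with a log2 fold change of -0.29 (SE 0.25, 95% interval -0.87 to 0.29, edgeR adjusted p = 0.999, exact permutation p = 0.5). The average transcript length that the authors' tables give for Nr4a3 was 4945 bases in isolated 3, 5463 in control 1 and 5573 in the other 4 libraries. On the CPM scale, which uses no length, isolated 3 was at 29.6 and isolated 2 at 36.8, a wider gap than in FPKM.

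**Figure D1:**
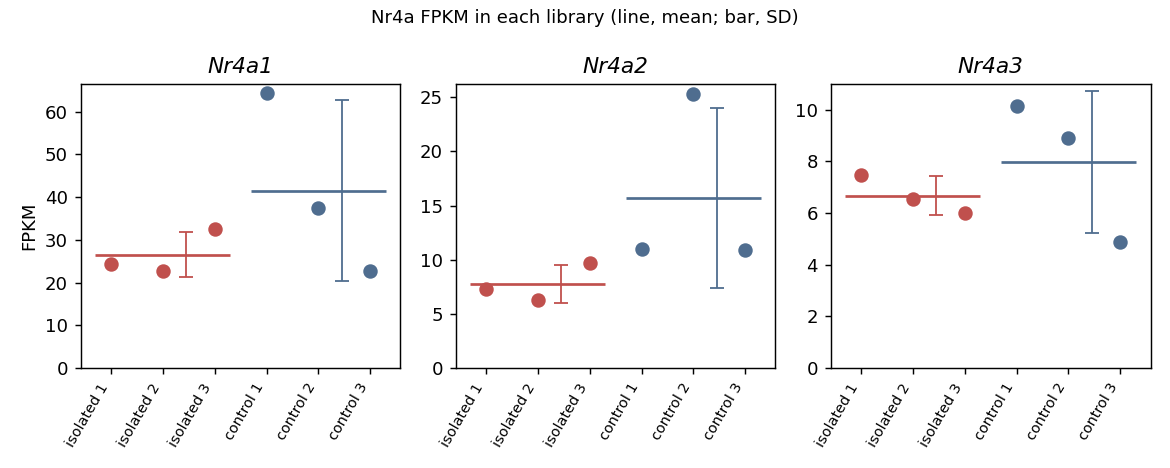
Deposited FPKM of Nr4a1, Nr4a2 and Nr4a3 (vertical axes, each from 0) in the 3 isolated and 3 control libraries (horizontal axis); points are libraries, lines are group means and bars are SD. Isolated values lie below all controls for Nr4a2 only, and the control points are spread more widely than the isolated points in each panel.

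With edgeR 0 of the 3 members and 0% of the 15169 tested genes passed an adjusted p of 0.05. At an unadjusted p under 0.05 edgeR listed 535 genes (3.53%), DESeq2 306 and limma-voom 536, of which DESeq2 called 1 gene after adjustment and limma-voom 0. The 3 members were lower in mean in isolated libraries, as were 50.8% of all tested genes. A log2 fold change of -0.5 or below, which Nr4a1 and Nr4a2 had, was found in 1.64% of tested genes.

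The spread within the groups was large for all 3 genes. Their within-group SD of log2 CPM was 0.56 for Nr4a1, 0.53 for Nr4a2 and 0.42 for Nr4a3, above that of 96.6%, 96.1% and 92.8% of tested genes. The controls had the wider range. In FPKM the highest library stood at 1.43 times the lowest in isolated and 2.84 times in control libraries for Nr4a1, at 1.55 and 2.32 times for Nr4a2, and at 1.24 and 2.07 times for Nr4a3. In CPM, which is free of the length difference, the ratios of Nr4a3 were 1.43 in isolated and 2.01 in control libraries. The difference in spread between the groups was not tested.

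Leaving out single libraries showed which controls carried each difference. Without control 1 the log2 fold change of Nr4a1 was -0.18 (SE 0.23), and without control 3 it was -0.94 (SE 0.24). That of Nr4a2 was -0.51 (SE 0.16) without control 2, and -1.23 (SE 0.35) without control 1. Nr4a3 was at -0.1 without control 1, -0.54 without control 3 and -0.17 without isolated 3. The sign was negative for all 3 genes in each of these fits, and adjusted p-values of edgeR were at least 0.856 when 1 library was left out. Without isolated 3 and control 2, the libraries with the highest striatal marker levels, Nr4a2 stood at -0.69 (SE 0.1, unadjusted p = 1.1e-04, adjusted p = 0.41 by edgeR), Nr4a1 at -0.89 and Nr4a3 at -0.08. That fit kept only isolated 1, isolated 2, control 1 and control 3, and control 2 was also the library highest in Nr4a2.

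**Figure D2:**
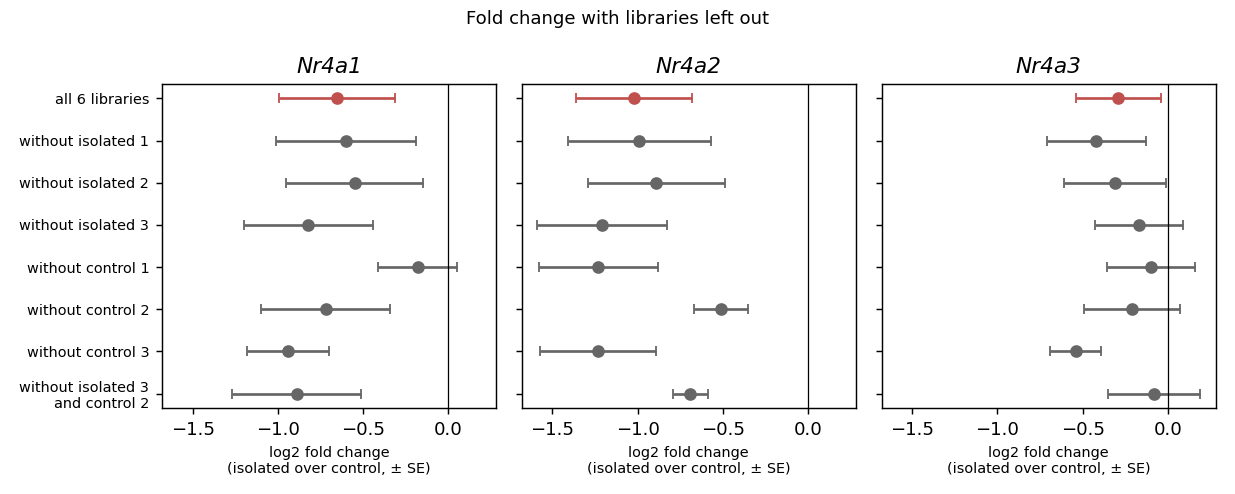
Log2 fold change of isolated over control (horizontal axis, ± SE) from edgeR with all 6 libraries (red) and with libraries left out (grey), for each gene. The estimate of Nr4a1 is nearest to 0 without control 1 (-0.18) and that of Nr4a2 without control 2 (-0.51).

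The make-up of the family also differed between libraries. In FPKM, Nr4a1 held 62.2%, 63.9% and 67.4% of the summed level of the 3 genes in isolated 1, 2 and 3, against 75.3%, 52.3% and 58.9% in control 1, 2 and 3. Nr4a2 held 18.7%, 17.7% and 20.1% in the isolated libraries, against 12.9%, 35.3% and 28.3% in the controls. The isolated shares of Nr4a2 were close together and inside the range of the controls, which ran from the lowest in control 1 to the highest in control 2. Nr4a3 held 19.1%, 18.4% and 12.5% in the isolated libraries, against 11.9%, 12.4% and 12.8% in the controls. Nr4a2 and Nr4a3 changed places in the order: in isolated 1 and isolated 2 Nr4a3 was slightly above Nr4a2 in FPKM, and in the other 4 libraries Nr4a2 was above Nr4a3. The summed level was 40.9 ± 6.52 FPKM in isolated and 65.2 ± 24.2 FPKM in control libraries (SD, n = 3 each), with control 3 at 38.4 FPKM inside the isolated range.

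**Figure D3:**
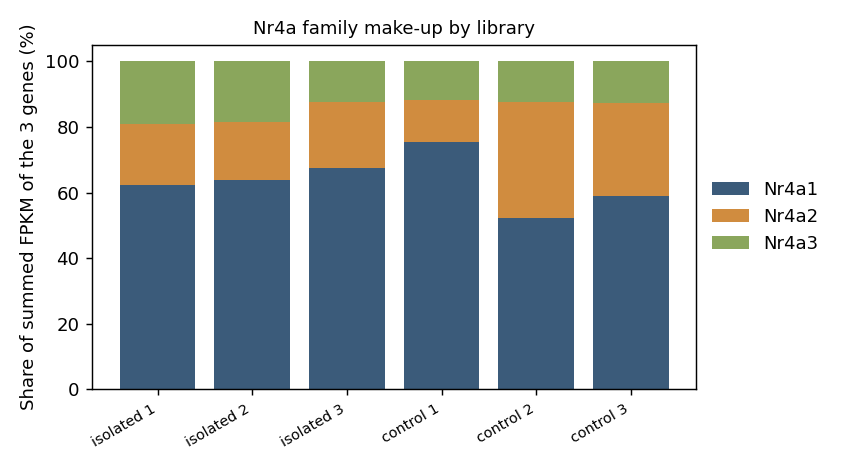
Share of each gene in the summed FPKM of Nr4a1, Nr4a2 and Nr4a3 (vertical axis, %) in each isolated and control library. The Nr4a2 share is 35.3% in control 2 and 12.9% in control 1, and between 17.7% and 20.1% in the isolated libraries.

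Nr4a1 and Nr4a3 were highest in control 1 and Nr4a2 in control 2, and the genes nearest in pattern differed between the members. Likeness was measured over the 6 libraries as the root mean square difference of log2 CPM, each gene centred on its own mean, so that 0 is an identical pattern. These distances are descriptions over 6 libraries that share depth and dissection. Nr4a1 and Nr4a3 lay 0.37 apart, Nr4a1 and Nr4a2 0.63, and Nr4a2 and Nr4a3 0.61. The median distance over all genes was 0.55 to Nr4a1, 0.65 to Nr4a2 and 0.39 to Nr4a3. The 0.37 between Nr4a1 and Nr4a3 was thus close to the median for Nr4a3. A distance under 0.3 to Nr4a1 was found for 52 tested genes, to Nr4a2 for 16 and to Nr4a3 for 734. As the distance grows with how much a gene itself varies, these counts do not compare likeness between members.

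The nearest genes to Nr4a1 were Dusp1 (distance 0.06), the phosphatase that shuts off MAP kinases, and Junb (0.11), a partner of Fos in the AP-1 complex. Dusp1 was at 20.7, 18.2 and 28.1 CPM in isolated 1, 2 and 3, against 57.5, 32.9 and 18.4 CPM in control 1, 2 and 3. This is the order of libraries seen for Nr4a1, with control 1 on top and isolated 2 and control 3 at the bottom. Next came Tbx6 (0.15), a T-box factor with group means of 0.629 CPM in isolated and 1.09 CPM in control libraries, the light- and activity-induced clock gene Per1 (0.18) and Hspa1b (0.19), an inducible heat shock protein. Per1 averaged 145 ± 12 CPM in isolated and 204 ± 69.8 CPM in control libraries (SD, n = 3 each). Hspa1b, a near copy of Hspa1a whose reads can be shared between both genes, was at 25.8 CPM in control 1 and between 9.23 and 12.1 CPM in the other 5 libraries.

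The nearest genes to Nr4a3 were Arhgef5 (0.08) and Fosl2 (0.12), the gene of another AP-1 subunit. Fosl2 was at 39.1, 30.4 and 24.4 CPM in isolated 1, 2 and 3, against 48.2, 49.1 and 28.1 CPM in control 1, 2 and 3, and like Nr4a3 it was lowest in isolated 3 and control 3. Emp1 (0.13), Tes (0.14) and the matrix protease gene Mmp11 (0.15) followed, with group means between 1.12 and 1.51 CPM.

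The nearest genes to Nr4a2 were scarce and less close. They were C030013G03Rik (0.16), the neuropeptide receptor gene Npbwr1 (0.17), Jph2 (0.19), which encodes a junctophilin, the histone gene H2bc6 (0.21) and the stress-induced factor gene Atf3 (0.22), with group means between 0.431 and 2.8 CPM. Among genes of at least 10 CPM, a search added after the data were seen, the nearest were Rcn1 (0.31) and Abi3bp (0.31), followed by Tafa2 (0.32). Tafa2, which encodes a secreted brain protein, was at 32.5, 29.7 and 26.8 CPM in isolated 1, 2 and 3, against 42.7, 65.4 and 35 CPM in control 1, 2 and 3. Its groups were apart and control 2 was highest, as for Nr4a2.

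Genes that neurons induce together with Nr4a were examined next. Of 14 other immediate early genes, 13 had a lower mean in isolated libraries, against 50.8% of all tested genes. Their median log2 fold change was -0.43 against 0 for all tested genes, and 0 passed edgeR's adjusted threshold in either direction. At an unadjusted p under 0.05 by edgeR, 3 of the 14 were lower, Egr2, Btg2 and Fos, against 2% of all tested genes. Isolated libraries lay all below the controls for 1 of the 14, Egr2, against 4.73% of all tested genes. Egr2, a zinc finger factor, was at 5.16, 4.08 and 5.11 CPM in isolated 1, 2 and 3, against 14.3, 13 and 5.17 CPM in control 1, 2 and 3. Control 3 barely exceeded the isolated libraries. Btg2, an antiproliferative regulator, was at 8.38 ± 0.468 CPM in isolated and 12.4 ± 3.42 CPM in control libraries, and Fos at 13.7 ± 2.41 and 23.5 ± 10.1 CPM (SD, n = 3 each).

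Control 1 was the highest library for many genes of this list. Arc, whose protein trims AMPA receptors from synapses, was at 73.6, 76.5 and 144 CPM in isolated 1, 2 and 3, against 510, 168 and 71.1 CPM in control 1, 2 and 3. Its log2 fold change was -1.35 (SE 0.65), those of Junb and Dusp1 were -0.76 and -0.7, and that of Ier2 was -0.43. Fosl2, Jun, Egr1, Egr4 and Npas4, all transcription factor genes, had log2 fold changes of -0.42, -0.29, -0.27, -0.24 and -0.22. Fosb and Egr3 did not share the lower mean to this degree, at -0.01 and 0.13. The mean log2 level of the list lay 0.74 above the mean of the 6 libraries in control 1, where Nr4a1 lay 1.03 and Nr4a3 0.52 above its own mean, but Nr4a2 only 0.07. Without control 1 the median of the list was -0.21, and without control 3 it was -0.65.

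By distance, Junb, Dusp1, Ier2 and Btg2 were among the 9 nearest of all genes to Nr4a1, and Fosl2, Egr4 and Fosb among the 42 nearest to Nr4a3. For Nr4a2 the nearest immediate early gene of this list was Egr2 at rank 441 (0.48). Other genes of the list were less close. Egr3 was at 0.54 from Nr4a1, where the median over all genes was 0.55. Arc was at 0.95 from Nr4a2 and 0.81 from Nr4a3, against medians of 0.65 and 0.39. Egr3, Ier2, Fosb and Npas4 (0.76, 0.74, 0.71 and 0.69) also lay beyond the median for Nr4a2. Egr2, Junb and Dusp1 (0.46, 0.43 and 0.41) also lay beyond the median for Nr4a3, and Ier2 (0.39) was about at it. Of the 10 list genes with a promoter window, 8 held at least 1 half-site of the cyclic AMP response element in a window, 6 at least 2 and 0 at least 4, against 19.8%, 4.46% and 0.163% of all genes with a window. Dusp1, with 3, held the most.

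**Figure D4:**
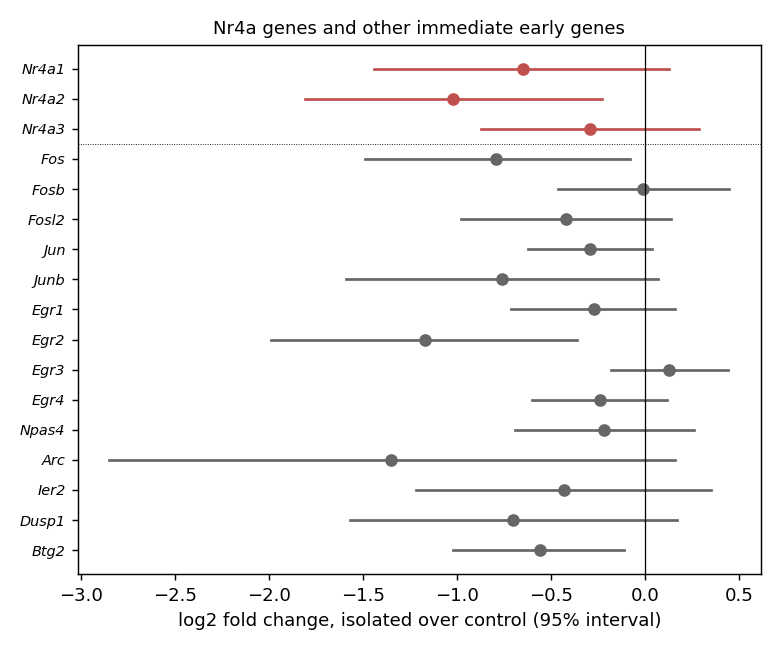
Log2 fold change of isolated over control from edgeR (horizontal axis, point) with 95% interval (line) for the 3 Nr4a genes (red) and 14 other immediate early genes (grey). The intervals of Nr4a2, Fos, Egr2 and Btg2 do not reach 0 before adjustment for the number of genes, and Arc has the widest interval.

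Regulators upstream of Nr4a transcription showed small differences. Of 14 genes, 2 had a higher and 12 a lower mean in isolated libraries, edgeR called 0 after adjustment and 0 at an unadjusted p under 0.05, and the median log2 fold change was -0.05. Creb1, the cyclic AMP response factor, was at 59.9 ± 2.28 CPM in isolated and 59.4 ± 2.68 CPM in control libraries, Crem, its family member and source of a repressor form, at 13.4 ± 1.06 and 13.3 ± 1.01 CPM, and the CREB coactivator gene Crtc1 at 273 ± 5.85 and 280 ± 2.51 CPM (SD, n = 3 each). These values are of messenger RNA, and CREB and its coactivators act mainly through phosphorylation and movement into the nucleus. Srf, the serum response factor gene, had the smallest p of the list (log2 fold change -0.21, SE 0.09, unadjusted p = 0.0558 by edgeR).

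Genes for partners and coregulators of Nr4a proteins also held 0 calls among 8, with a median of -0.03. Rxra and Rxrb, retinoid receptors that pair with Nr4a1 and Nr4a2, were at 38 ± 2.85 and 62.5 ± 3.05 CPM in isolated libraries, against 37.4 ± 2.6 and 63.7 ± 4.82 CPM in control libraries (SD, n = 3 each). The third retinoid partner gene, Rxrg, which is abundant in striatum, was at 7.16, 10.6 and 47.6 CPM in isolated 1, 2 and 3, against 21.2, 78.9 and 5.61 CPM in control 1, 2 and 3. It was thus highest in control 2 and isolated 3, the libraries with the highest striatal marker levels given below. Trim28, a coactivator named after its values were seen, was at 112 ± 1.2 CPM in isolated and 105 ± 0.99 CPM in control libraries, with the groups apart (edgeR unadjusted p = 0.0628). Of all tested genes, 4.12% had isolated libraries all above the controls.

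Genes that Nr4a2 controls in midbrain dopamine neurons mostly had higher means in isolated libraries. Of the 10 listed, 8 passed the filter on low counts, 7 of these had a higher mean in isolated libraries and 0 were called, with a median log2 fold change of 0.19. Th, the rate-limiting enzyme of dopamine synthesis, was at 2.53 ± 0.902 CPM in isolated and 2.22 ± 0.396 CPM in control libraries, and Ddc, the next enzyme, at 4.65 ± 0.964 and 4.1 ± 1.13 CPM (SD, n = 3 each). The dopamine transporter gene Slc6a3 and Pitx3 were too scarce to be tested. Ptpru (0.23, unadjusted p = 0.0227) was higher and the retinaldehyde dehydrogenase gene Aldh1a1 (-0.3, unadjusted p = 0.0333) lower in log2 fold change, and both had an adjusted p of 0.999 by edgeR. An unadjusted p under 0.05 with a higher level in isolated libraries was found for 1.52% of tested genes. These 2 genes were named after their values were seen.

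Because Nr4a2 marks particular neurons, markers of the cells the dissection could hold were set beside it. In bulk tissue, fewer cells of a type and less RNA per cell cannot be told apart. Of 7 tested markers of claustrum and layer 6 Car3 neurons, all 7 had a lower mean in isolated libraries, 0 were called and the median log2 fold change was -0.56. The list has 9 markers, of which Smim32 was matched to no entry and is not analysed here and Car3 was too scarce to be tested. The summed level of the 8 matched markers was 350 to 360 CPM in isolated and 337 to 494 CPM in control libraries, and 0 of these 8 were at 0 in any library. Gnb4, a G protein subunit gene that marks the claustrum, was at 18.8, 22.5 and 23.6 CPM in isolated 1, 2 and 3, against 20.2, 44.9 and 30.6 CPM in control 1, 2 and 3. Like Nr4a2 it was highest in control 2, but unlike Nr4a2 it was low in control 1. Synpr, a synaptic vesicle protein gene, was at 55.5, 62 and 68.8 CPM in isolated 1, 2 and 3, against 55.9, 128 and 92.8 CPM in control 1, 2 and 3, the same order among controls. Ntng2, a membrane-bound netrin gene, and Nr2f2, a nuclear receptor gene, had non-overlapping groups, with log2 fold changes of -0.48 and -0.56 (edgeR unadjusted p = 0.00195 and 0.00942, adjusted p = 0.999). Of all tested genes, 4.73% had isolated libraries all below the controls. The groups overlapped for the other tested markers, among them Lxn at -0.23 and Gng2 at -0.04. The part of these cells in the Nr4a2 difference was not tested.

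Markers of other deep-layer neurons had positive medians. Layer 6b markers had a median log2 fold change of 0.21 over 5 genes and summed levels of 69.9 to 91.1 CPM in isolated and 41.7 to 76.2 CPM in control libraries. Ccn2, a matrix protein gene that marks layer 6b, was at 37 ± 6.2 CPM in isolated and 28.7 ± 12 CPM in control libraries (SD, n = 3 each). The medians were 0.08 over 6 markers of layer 6 corticothalamic neurons and 0.41 over 4 layer 5 markers. Fezf2, Etv1 and Crym, 3 of the layer 5 markers, had an unadjusted p under 0.05 by edgeR and were higher in isolated libraries, but 0 were called. This held for 1.52% of all tested genes. Bcl11b, the remaining layer 5 marker, had a log2 fold change of -0.18. The summed level of the 4 layer 5 markers overlapped, at 269 to 309 CPM in isolated and 220 to 311 CPM in control libraries. The 6 excitatory and pan-neuronal markers had a median of 0.02, and Slc17a7, the vesicular glutamate transporter of cortical neurons, was at 1800 ± 196 CPM in isolated and 1790 ± 212 CPM in control libraries. Cortical markers were thus abundant in both groups.

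Striatal projection neuron markers varied widely between libraries. All 10 had a lower mean in isolated libraries, with a median log2 fold change of -0.45, and 0 were called. Their summed level was 497, 488 and 2350 CPM in isolated 1, 2 and 3, against 1010, 3260 and 305 CPM in control 1, 2 and 3. Beside these, Nr4a2 was at 22.7, 19.4 and 29.7 CPM in isolated 1, 2 and 3, against 34.2, 78 and 33.9 CPM in control 1, 2 and 3. Control 2 was thus the highest library in both. Among glia, oligodendrocyte markers were at 3440 to 6330 CPM in isolated and 2650 to 4430 CPM in control libraries, with isolated 3 highest. All 6 had a higher mean in isolated libraries, with a median log2 fold change of 0.44, and 0 were called. Astrocyte, microglial and vascular lists had medians of -0.08, -0.1 and -0.15. All of their 5, 6 and 6 markers had a lower mean in isolated libraries, against 50.8% of all tested genes, and 0 were called. Isolated libraries lay all below the controls for 2, 3 and 2 of these markers, against 4.73% of all tested genes. The blood monocyte markers listed were scarce. The summed level of the 4 markers was 0.89 to 1.6 CPM in isolated and 1.05 to 1.97 CPM in control libraries, and 2 of them were at 0 in at least 1 library. Only 1 of the 4, Itgal, was tested, at 0.381 to 1.58 CPM. The part of striatal or glial RNA in the differences of the family was not tested. The fit without control 2 and isolated 3 is no such test, as control 2 was also the library highest in Nr4a2 and in claustrum markers.

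**Figure D5:**
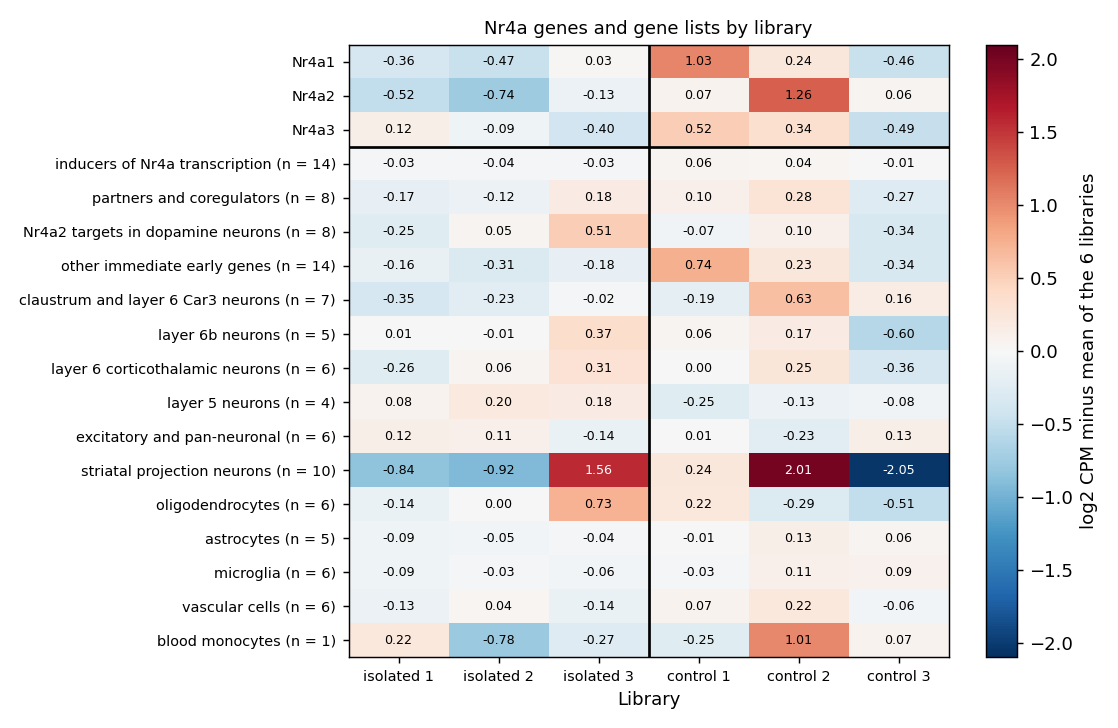
Log2 CPM relative to the mean of the 6 libraries (colour and printed value) for each Nr4a gene and, as a mean over the tested genes (n), for each gene list (rows) in the isolated and control libraries (columns). Nr4a1 and the other immediate early genes are highest in control 1 (1.03 and 0.74), whereas Nr4a2 and the claustrum list are highest in control 2 (1.26 and 0.63). Control 2 is also the highest library for the striatal (2.01), partner (0.28), vascular (0.22), astrocyte (0.13) and microglial (0.11) lists. The same holds for the monocyte row (1.01), which is the scarce gene Itgal alone.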

How the data were processed

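The members and gene lists were chosen with earlier results of these data known. Per the file headers, the deposited tables list for each gene its expected count, FPKM and transcript length. Per the submitters' processing notes the tools were HISAT, Bowtie2 and RSEM and the build was mm10; no source used here says whether counting used strand. The deposited expected count is RSEM's name for reads shared out between matching genes, and the deposited FPKM divides by length and library size. A series table with 6 FPKM columns of unlabelled codes was not used. Rows without a gene (at most 0.00095% of counts) were dropped, and a gene that a table did not list was given 0.

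Expected counts were rounded and fitted with edgeR 4.0.16 in R 4.3.3 (filterByExpr with a minimum count of 10 and total of 15, leaving 15169 genes; TMM factors 0.991 to 1.01; no covariates; threshold 0.05). On simulated data with known changes the fit gave every called gene its right sign, but the share of false calls was above the nominal rate and above the limit first set for this test; that limit was then loosened and the fit left as it was. Alternatives used DESeq2 1.42.0 and limma 3.58.1. Named genes were the 3 members, the 5 nearest in pattern to each (log2 CPM with a prior count of 2), the first 3 of each pathway list and the other immediate early genes. Single marker genes, Srf and the genes searched above 10 CPM were named after their values were seen. Libraries of a pair differed by more than counting noise (chi-square of 2.89 to 20.4 per gene).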

Additional observations from a re-analysis of the deposited data

How the results depend on the processing

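Nr4a1, Nr4a2 and Nr4a3 kept a negative log2 fold change and an adjusted p above 0.05 in each of 16 alternatives. Leaving out 1 library at a time gave -0.94 to -0.18 for Nr4a1, -1.23 to -0.51 for Nr4a2 and -0.54 to -0.1 for Nr4a3, and the other 10 alternatives gave -0.89 to -0.52, -1.02 to -0.69 and -0.3 to -0.08. The lowest adjusted p-values were 0.856, 0.41 and 0.88. Nr4a3 was -0.18 by limma on log2(FPKM + 1). Over all tested genes, same-numbered libraries did not deviate together (correlations of deviations 0.03, -0.27 and -0.49). Nr4a3, unlike Nr4a1 and Nr4a2, did fall in CPM from replicate 1 to 3 in both groups. Its values were 42.3, 36.8 and 29.6 in isolated and 55.8, 49.6 and 27.8 in control libraries. With the replicate number as a block edgeR gave -0.55, -0.92 and -0.25 for the 3 members. The SE was 0.35, 0.36 and 0.12 with the block, against 0.34, 0.34 and 0.25 without it. That fit called 0 genes and listed 331 at an unadjusted p under 0.05 in place of 535. Whether the replicate numbers mark a shared step was not tested. DESeq2 called 1 gene, Fkbp5, named after its values were seen, and listed 306 genes at an unadjusted p under 0.05; without single libraries edgeR called 0 and listed 369 to 860. Of the pathway list genes 0 were called in any alternative. The difference in the Nr4a1 share, 2.33 percentage points, ran from -2.6 to 8.89 without single libraries. Depth limits the scarce named genes, such as those nearest to Nr4a2, with group means of 0.431 to 2.8 CPM, Tbx6, Emp1, Tes, Mmp11 and the monocyte markers.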
